A study of Mus musculus with 28 samples.

Results

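Endothelial and angiogenesis genes were followed in the tibialis anterior muscle of mouse models of centronuclear myopathy. The set held 43 genes, a list of symbols for roles in blood vessels: 9 endothelial surface and junction genes, 5 transcription factors, 4 VEGF ligands, 3 VEGF receptors, 4 angiopoietin and TIE genes, 4 Notch genes, 2 genes of the ALK1 and endoglin receptor, the apelin ligand and its receptor, 3 genes of nitric oxide and cGMP signalling, 3 genes of other secreted factors and 4 further capillary genes. All 43 symbols matched a gene in each count table, out of 55359 genes listed in both, and all 43 passed the filter on low counts in every fit. The data were poly-A RNA-seq of whole muscle from 28 mice in 7 groups of 4, all 8 weeks old and on the C57BL/6N background, each library coming from a separate mouse. The Dnm2 cohort compared wild-type (WT) mice with Dnm2 S619L/+ mice, which carry the S619L change in 1 copy of the gene for dynamin 2 in every cell, each genotype on placebo or tamoxifen. The Bin1 cohort compared WT mice on placebo with Bin1 mck-/- mice on placebo or tamoxifen, and had no WT group on tamoxifen. In Bin1 mck-/- mice a Cre recombinase driven by the muscle creatine kinase promoter removes Bin1 from muscle fibers, so their endothelial cells are not targeted. The cohorts differed in library protocol, with 300 ng of RNA fragmented for 2 minutes in the Dnm2 cohort and 350 ng for 8 minutes in the Bin1 cohort, so that model and protocol cannot be told apart in a comparison across them.

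Each muscle fiber is bordered by capillaries, whose lining of endothelial cells is held together by VE-cadherin, PECAM1 and related junction proteins and is specified by ETS and SOX transcription factors. Muscle fibers release VEGF-A and VEGF-B, the endothelium carries the matching receptors, and the angiopoietin and TIE system, Notch, ALK1 with endoglin, apelin and nitric oxide set how stable, branched and dilated the vessels are. In whole muscle, fewer endothelial cells and less RNA of these genes per endothelial cell cannot be told apart.

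The ETS factor ERG is a member of the set and an activator of many endothelial genes, so the promoters are shown for a site of its type. RefSeq promoters (build GRCm38.p6), read as the 250 bases before the start site, were at hand for 23 of the 43 genes and numbered 30. The 7 letters CAGGAAG, searched on both strands, occurred in 7 of these 30 promoters (23.3%), of the 6 genes Apln, Egfl7, Emcn, Erg, Notch4 and Robo4, and in 10.8% of all 32851 promoters. Of these, 4 genes whose RNA fell in Dnm2 S619L/+ mice are printed 5′ to 3′ with the match in capitals, CTTCCTG being the same letters on the other strand, and the promoter of Flt1, the gene with the smallest p in that comparison, is printed as an example with no match to all 7 letters. It does hold AGGAAG, the 7 letters without the first C.
Emcn, chr3:137340828-137341077, plus strand: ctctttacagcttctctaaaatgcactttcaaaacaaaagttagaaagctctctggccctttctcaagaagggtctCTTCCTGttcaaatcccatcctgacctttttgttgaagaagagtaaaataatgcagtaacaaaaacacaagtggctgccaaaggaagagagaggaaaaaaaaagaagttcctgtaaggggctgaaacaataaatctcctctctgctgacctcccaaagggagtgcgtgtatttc
Erg, chr16:95459349-95459598, minus strand: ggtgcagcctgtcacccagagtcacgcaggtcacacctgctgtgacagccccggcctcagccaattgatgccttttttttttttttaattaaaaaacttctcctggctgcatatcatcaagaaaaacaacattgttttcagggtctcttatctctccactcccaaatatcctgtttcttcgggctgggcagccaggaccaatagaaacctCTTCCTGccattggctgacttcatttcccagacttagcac
Notch4, chr17:34564045-34564294, plus strand: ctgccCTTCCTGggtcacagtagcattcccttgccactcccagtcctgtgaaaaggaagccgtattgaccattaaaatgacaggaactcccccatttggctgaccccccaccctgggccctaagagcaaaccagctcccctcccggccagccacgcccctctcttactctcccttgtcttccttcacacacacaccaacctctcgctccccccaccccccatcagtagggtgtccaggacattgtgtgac
Robo4, chr9:37401722-37401971, plus strand: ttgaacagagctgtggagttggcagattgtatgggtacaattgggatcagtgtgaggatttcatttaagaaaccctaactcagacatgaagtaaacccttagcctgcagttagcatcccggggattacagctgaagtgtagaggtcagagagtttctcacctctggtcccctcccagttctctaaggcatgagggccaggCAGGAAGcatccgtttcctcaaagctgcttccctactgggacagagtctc
Flt1, chr5:147726012-147726261, minus strand: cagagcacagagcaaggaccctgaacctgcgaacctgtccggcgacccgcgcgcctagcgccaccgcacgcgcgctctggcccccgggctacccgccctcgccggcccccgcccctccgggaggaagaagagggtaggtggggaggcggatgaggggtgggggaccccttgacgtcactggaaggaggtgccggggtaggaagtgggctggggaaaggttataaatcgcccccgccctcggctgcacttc
The match ended 168 bases before the start site in Emcn, 34 in Erg, 239 in Notch4 and 44 in Robo4. Erg had 3 promoters in the table, and the other two held no match. These are matches of letters, and binding was not measured.

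Levels are given as CPM, a gene's reads as a share of the library scaled by TMM, with the mice of a group in the order of their replicate numbers, 1 to 4, or 5 to 8 for the WT mice of the Bin1 cohort. Per kilobase of exon, Aqp1, the water channel of capillary endothelium, had the highest level of the 43 genes in WT placebo mice, at 227 ± 26.3 CPM per kb in the Dnm2 cohort and 255 ± 21.7 in the Bin1 cohort (SD, n = 4). Vegfa (93.2 ± 20.7) and Vegfb (83.3 ± 11.2) came next in the Dnm2 cohort and did not differ beyond their spread, followed by Epas1 at 66.3 ± 4.74 and Cdh5 at 43.8 ± 11.4 CPM per kb. In the Bin1 cohort Vegfb (107 ± 4.77) stood above Vegfa (89.5 ± 5.63), then Epas1 (53.3 ± 4.06) and Cdh5 (43.5 ± 4.91). The lowest levels in both cohorts were those of Pgf, at 0.708 ± 0.270 and 0.307 ± 0.0659 CPM per kb, and of Vegfc, at 1.01 ± 0.508 and 1.05 ± 0.286.

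Libraries held between 15586333 and 109710886 reads on genes in the Dnm2 cohort and between 24671835 and 35136327 in the Bin1 cohort. Bin1 was at 549, 521, 533 and 556 CPM in the WT mice and 62.1, 51.6, 52.2 and 58.8 CPM in the Bin1 mck-/- placebo mice of the Bin1 cohort, and fell by 3.26 ± 0.13 (SE) on the log2 scale (adjusted p = 7.1e-10), as their labels say, whereas Dnm2 RNA did not pass the test between Dnm2 S619L/+ and WT mice (adjusted p = 0.344), so that it does not check the genotype of that knock-in. The 38 further endothelial genes were present in every group, their summed level ranging from 1513 to 2576 CPM in the WT placebo mice of both cohorts. Some mice stood apart over the whole set. Dnm2 S619L/+ placebo mouse 3 was the highest of its group in 35 of the 43 genes, and its level over the mean of the other mice of its group had a median of 0.71 on the log2 scale. WT placebo mouse 4 of the Dnm2 cohort was the highest in 33 genes (median 0.50), and WT placebo mouse 3 of that cohort, which also had the smallest library, was the lowest in 26 (median -0.41). Bin1 mck-/- tamoxifen mouse 4 was the lowest in 33 genes (median -0.63). Over the 43 genes the median coefficient of variation within a group ranged from 10.2% in the WT mice of the Bin1 cohort to 34.7% in the Dnm2 S619L/+ placebo mice. Xist RNA was present in 2 of 4 WT placebo, 2 of 4 WT tamoxifen, 2 of 4 Dnm2 S619L/+ placebo and 4 of 4 Dnm2 S619L/+ tamoxifen mice, and in all 12 mice of the Bin1 cohort. Xist is transcribed from the inactive X chromosome of females, so the groups of the Dnm2 cohort may differ in sex. Dnm2 S619L/+ placebo mice 2 and 3 were among the mice without it (0.096 and 0.0453 CPM).

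**Figure D1:**
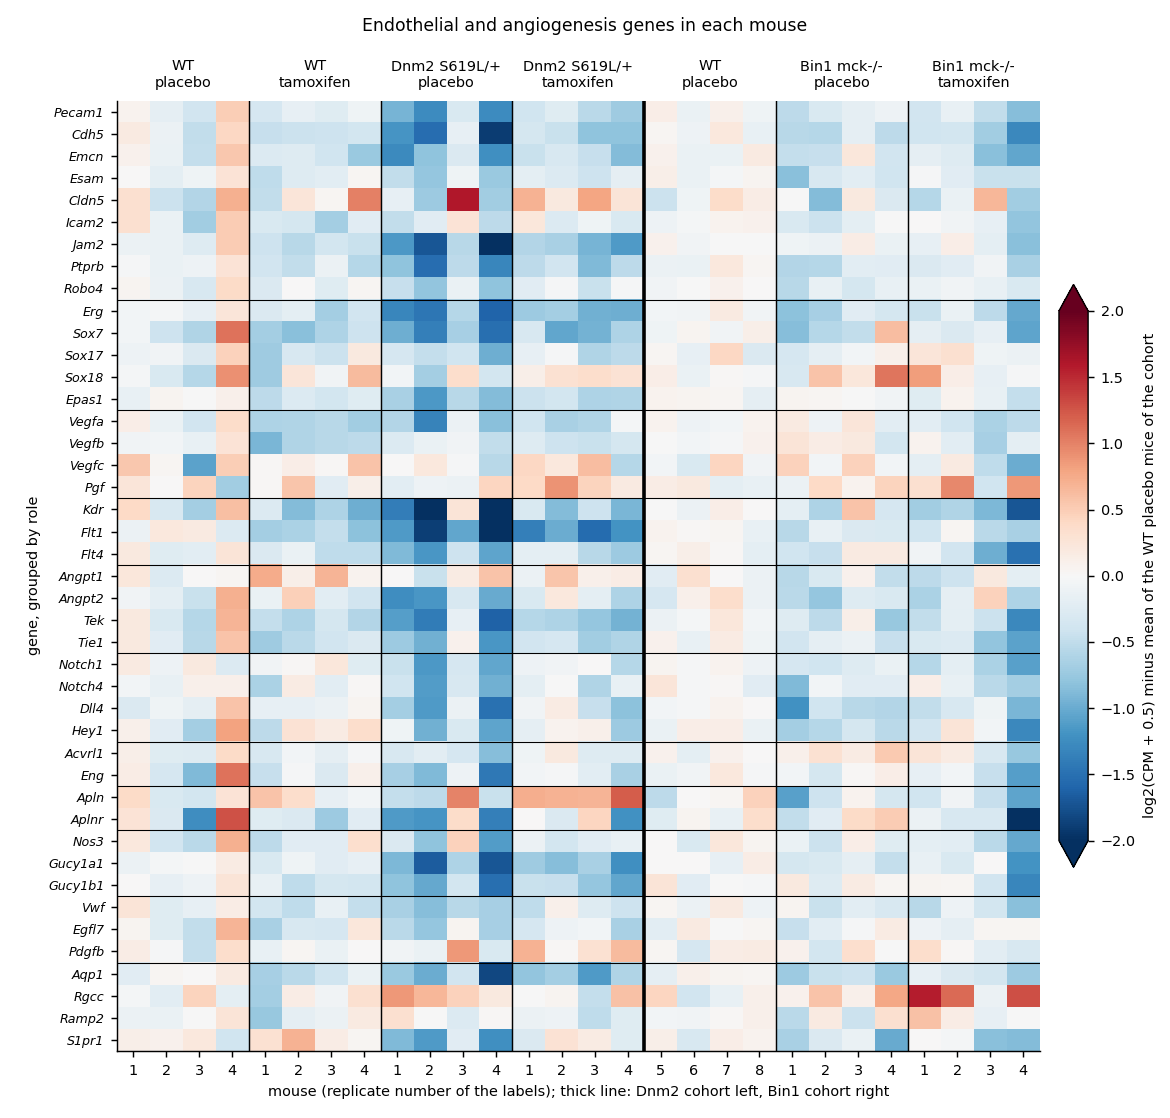
Level of the 43 genes (rows, grouped by role) in each of the 28 mice (columns, by replicate number), as log2(CPM + 0.5) minus the mean of the 4 WT placebo mice of the same cohort, with the color scale ending at -2 and 2. Blue fills most of the Dnm2 S619L/+ placebo columns except mouse 3, and the column of Bin1 mck-/- tamoxifen mouse 4.

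The comparison of Dnm2 S619L/+ with WT mice on placebo asked how the disease genotype relates to these genes. RNA of the set was lower in most roles: 23 of the 43 genes fell, none rose and 20 did not pass the test (adjusted p under 0.05 over all genes tested), whereas 9.81% of the 15439 genes tested were called lower. The median log2 fold change of the 43 was -0.71 (a fold of 0.612) against 0.02 over all genes tested, and 38 of the 43 values lay below 0. By role, 7 of 9 surface and junction genes, 3 of 5 transcription factors, 1 of 4 VEGF ligands, 2 of 3 VEGF receptors, 2 of 4 angiopoietin and TIE genes, 3 of 4 Notch genes, 2 of 3 nitric oxide and cGMP genes, 1 of 3 other secreted factors and 2 of 4 further capillary genes fell, and none of the ALK1, endoglin and apelin genes did. Of the 23, 15 passed in each of the 16 fits that left out 1 mouse and under each of the 10 other alternatives. The rest, Cdh5, Esam, Robo4, Vegfa, Angpt2, Tek, Notch4 and Dll4, lost the call in at least 1 of the 16 fits. The count was 15 without Dnm2 S619L/+ placebo mouse 2 and 28 without mouse 3, the mouse with the high levels. Leaving out mouse 3 lowers the mutant mean of most of the 43 genes, so that count is no separate support for a fall.

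Among the VEGF receptors, Flt1, which encodes the high-affinity receptor VEGFR1 and its soluble decoy form, was at 146, 182, 179 and 130 CPM in the WT placebo mice and at 71.7, 42.6, 76.4 and 36.7 CPM in the Dnm2 S619L/+ placebo mice. No mutant mouse reached the lowest WT mouse, and Flt1 fell by 1.48 ± 0.21 (SE) on the log2 scale (adjusted p = 0.000246), with the smallest p of the 43. Flt4, encoding VEGFR3 of lymphatic and sprouting endothelium, was at 14.9, 10.9, 11.2 and 15.7 CPM in WT and 6.81, 5.52, 9.6 and 5.98 CPM in mutant mice, again without overlap, and fell by 0.92 ± 0.19 (SE) on the log2 scale (adjusted p = 0.00336). Kdr, encoding VEGFR2, the main signalling receptor for VEGF-A, was at 99.1, 59.7, 46.5 and 113 CPM in WT mice and at 28.3, 17.6, 89.4 and 12.8 CPM in mutant mice. Here 3 mutant mice lay below all WT mice and mouse 3 lay among them, and the difference missed the threshold (-1.11 ± 0.47 (SE), adjusted p = 0.104). Without mouse 3 it passed (-2.02 ± 0.34 (SE), adjusted p = 0.000841).

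The VEGF ligands were less uniform. Vegfa was at 428, 359, 302 and 508 CPM in WT mice and at 260, 155, 363 and 220 CPM in mutant mice, overlapping through mutant mouse 3, and fell by 0.68 ± 0.22 (SE) on the log2 scale (adjusted p = 0.0363). Vegfb, whose product acts through VEGFR1, was at 127, 128, 120 and 160 CPM in WT against 110, 121, 127 and 94.6 CPM in mutant mice, and did not pass (-0.24 ± 0.12 (SE), adjusted p = 0.146). Vegfc, the lymphatic ligand, was at 3.48, 2.29, 0.791 and 3.35 CPM in WT against 2.23, 2.64, 2.17 and 1.35 CPM in mutant mice, and Pgf, placental growth factor, at 2.39, 1.98, 2.85 and 1.01 CPM in WT against 1.62, 1.78, 1.77 and 2.81 CPM in mutant mice. Neither of these low genes passed the test, with log2 fold changes of -0.29 and -0.02.

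Among the transcription factors Erg, an ETS factor, was at 24.6, 25, 22.8 and 30.5 CPM in WT and 10.1, 9.07, 17.1 and 8.07 CPM in mutant mice, and fell by 1.22 ± 0.19 (SE) on the log2 scale (adjusted p = 0.00058). Epas1, which encodes the hypoxia-inducible factor HIF-2α of endothelium, was at 334, 384, 369 and 395 CPM in WT and 236, 166, 252 and 203 CPM in mutant mice, and fell by 0.79 ± 0.12 (SE) on the log2 scale (adjusted p = 0.000453). Every mutant mouse was below every WT mouse for both genes. Sox7, an endothelial SOX factor, fell from 17.1 ± 10.6 CPM to 6.89 ± 1.99 CPM (SD, n = 4; -1.32 ± 0.32 (SE), adjusted p = 0.0104), WT mouse 4 being far above the other WT mice at 32.7 CPM. The related Sox17 (-0.59 ± 0.22 (SE), adjusted p = 0.0684) and Sox18 (-0.28 ± 0.34 (SE), adjusted p = 0.576) did not pass.

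Of the surface and junction genes, Ptprb, encoding the endothelial phosphatase VE-PTP that acts on TIE2 and VE-cadherin, was at 114, 106, 108 and 140 CPM in WT and 66, 40, 80.5 and 46.6 CPM in mutant mice and fell by 1.01 ± 0.19 (SE) on the log2 scale (adjusted p = 0.00179). Jam2, a junctional adhesion molecule, was at 76.9, 75.8, 69.3 and 119 CPM in WT against 37.3, 25.1, 56.7 and 20.3 CPM in mutant mice and fell by 1.29 ± 0.26 (SE) on the log2 scale (adjusted p = 0.00318). Neither gene overlapped between the groups. Pecam1 (CD31) fell from 149 ± 41.4 CPM to 78.9 ± 27.4 CPM, Cdh5 (VE-cadherin) from 184 ± 47.8 CPM to 87.3 ± 50.4 CPM, and Emcn (endomucin, a capillary and venous sialomucin) from 29.6 ± 9.04 CPM to 15.7 ± 5.45 CPM (SD, n = 4), with adjusted p of 0.00677, 0.0171 and 0.0125. In these 3 genes mutant mouse 3 lay within the WT range. Esam and Robo4, a junction protein and a stabilizing guidance receptor, fell less, by 0.51 ± 0.15 (SE) on the log2 scale (adjusted p = 0.0265) and 0.56 ± 0.17 (SE) on the log2 scale (adjusted p = 0.0294). Cldn5, the tight junction claudin, was at 8.74, 5.01, 4.43 and 11.7 CPM in WT and 6.11, 3.98, 22 and 4.08 CPM in mutant mice, mouse 3 standing far above the other mutant mice (0.25 ± 0.50 (SE), adjusted p = 0.759), and Icam2 did not pass either (-0.32 ± 0.25 (SE), adjusted p = 0.378).

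In the angiopoietin and TIE system, the receptor gene Tek (TIE2) was at 47, 33.3, 27.4 and 66 CPM in WT and 18.9, 15.3, 36.4 and 13.1 CPM in mutant mice and fell by 1.06 ± 0.29 (SE) on the log2 scale (adjusted p = 0.0186). Angpt2, the ligand released by endothelium itself, was at 5.36, 4.87, 4.03 and 9.65 CPM in WT against 2.1, 2.26, 4.44 and 2.57 CPM in mutant mice and fell to 0.468 of the WT mean (adjusted p = 0.0214). The co-receptor gene Tie1 was at 80.1, 59.8, 47.6 and 104 CPM in WT against 42.2, 35.6, 73.9 and 30.9 CPM in mutant mice and did not pass (-0.68 ± 0.26 (SE), adjusted p = 0.0698). All 3 overlapped through mutant mouse 3. Angpt1, the activating ligand made mainly outside the endothelium, was at 21.8, 15.2, 18.6 and 19 CPM in WT against 18.6, 13.4, 20.7 and 27.6 CPM in mutant mice (0.11 ± 0.22 (SE), adjusted p = 0.759). Leaving out 1 mouse cost Tek its call in 3 of 16 fits and Angpt2 in 4.

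Soluble guanylate cyclase, the nitric oxide receptor of vessel walls, has an alpha and a beta chain, encoded by Gucy1a1 and Gucy1b1. Gucy1a1 was at 20.4, 21.7, 22.2 and 24.9 CPM in WT and 11.7, 6.67, 14.3 and 6.45 CPM in mutant mice and fell by 1.18 ± 0.21 (SE) on the log2 scale (adjusted p = 0.00135). Gucy1b1 was at 15.2, 13.4, 14 and 18 CPM in WT against 8.38, 7.15, 11.5 and 4.95 CPM in mutant mice and fell by 0.92 ± 0.21 (SE) on the log2 scale (adjusted p = 0.00574). Neither chain overlapped between the groups. Nos3, the endothelial nitric oxide synthase, was at 21.6, 14.1, 12.6 and 30.6 CPM in WT against 15.1, 10.4, 25.7 and 8.27 CPM in mutant mice, with mutant mouse 3 above 3 of the WT mice, and did not pass (-0.42 ± 0.32 (SE), adjusted p = 0.369). Both cyclase genes are also used by smooth muscle and pericytes.

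The Notch receptors Notch1 and Notch4 fell from 31.1 ± 4.75 CPM to 18.8 ± 5.45 CPM and from 28.2 ± 2.43 CPM to 17.7 ± 4.91 CPM (SD, n = 4), without overlap and with adjusted p of 0.014 and 0.0241. Dll4, the arterial and tip cell ligand, fell by 0.85 ± 0.29 (SE) on the log2 scale (adjusted p = 0.0459) but kept its call in only 4 of the 16 fits that left out 1 mouse, and the target gene Hey1 did not pass (-0.71 ± 0.33 (SE), adjusted p = 0.134). The BMP receptor genes Acvrl1 (-0.45 ± 0.17 (SE), adjusted p = 0.0679) and Eng (-0.89 ± 0.35 (SE), adjusted p = 0.0796) did not pass. Apln, the apelin ligand, was at 4.32, 2.49, 2.37 and 3.98 CPM in WT and 2.16, 2.06, 6.84 and 2.22 CPM in mutant mice, mouse 3 being above all WT mice (-0.02 ± 0.36 (SE), adjusted p = 0.976), and its receptor gene Aplnr did not pass (-0.95 ± 0.49 (SE), adjusted p = 0.178).

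Vwf, the clotting factor stored by endothelium, was at 50.7, 35.8, 37.6 and 47.2 CPM in WT and 26.8, 23.3, 28.8 and 26.5 CPM in mutant mice and fell by 0.70 ± 0.14 (SE) on the log2 scale (adjusted p = 0.00319), the mutant mice lying close together and all below the WT mice. Aqp1 was at 506, 614, 597 and 673 CPM in WT and 355, 297, 454 and 168 CPM in mutant mice and fell by 0.91 ± 0.22 (SE) on the log2 scale (adjusted p = 0.0105). S1pr1, the sphingosine-1-phosphate receptor that tightens the endothelial barrier, was at 91.6, 89.8, 97.8 and 64.3 CPM in WT against 46, 38.3, 72.4 and 35.8 CPM in mutant mice and fell by 0.84 ± 0.22 (SE) on the log2 scale (adjusted p = 0.0151). The vessel guidance factor Egfl7 (-0.52 ± 0.26 (SE), adjusted p = 0.153) did not pass, nor did Pdgfb, which recruits pericytes (0.13 ± 0.24 (SE), adjusted p = 0.735). Of the 43 values 5 lay above 0: those of Rgcc, a cell cycle regulator (0.56 ± 0.24 (SE), adjusted p = 0.107), Cldn5, Pdgfb, Angpt1 and Ramp2, a co-receptor for adrenomedullin (0.02 ± 0.17 (SE), adjusted p = 0.939).

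**Figure D2:**
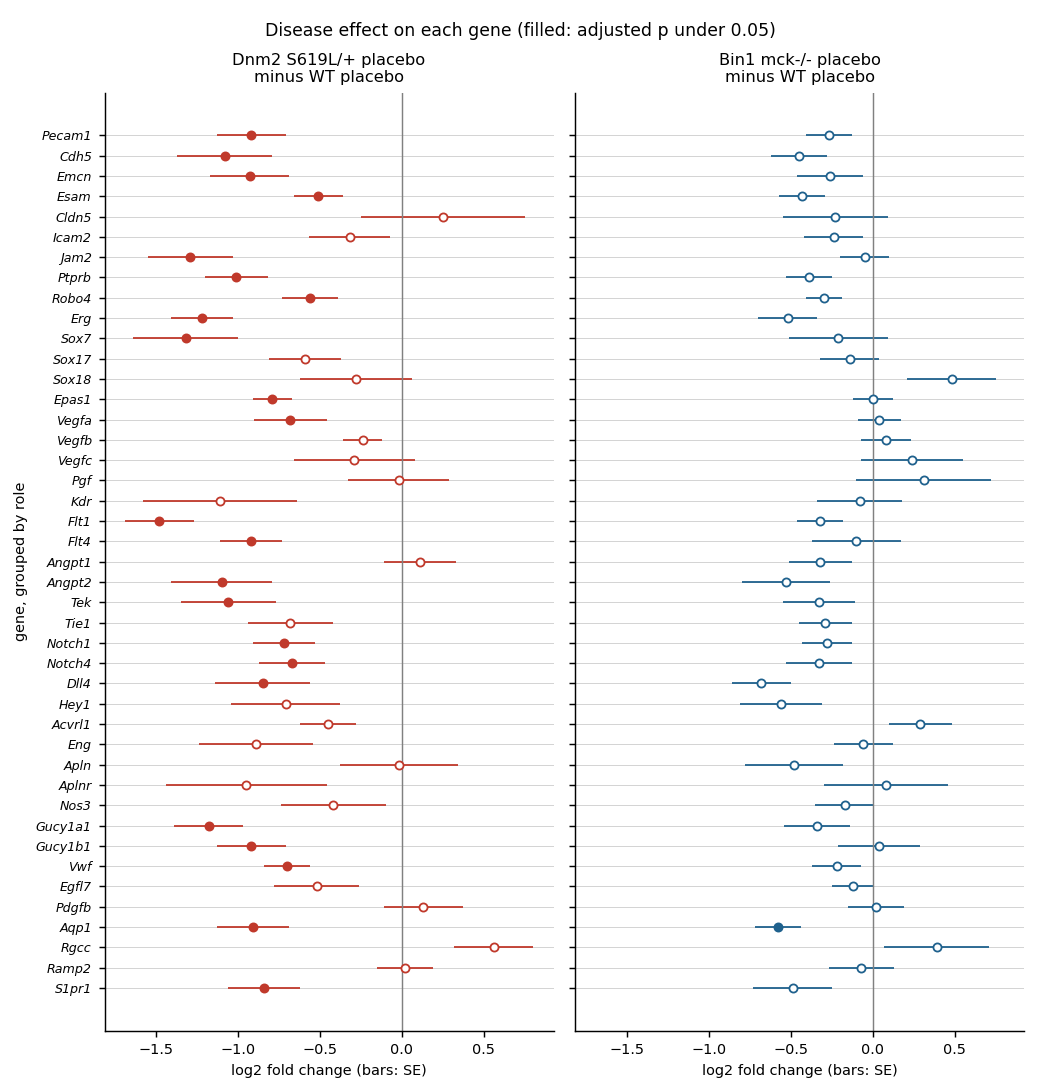
Log2 fold change ± SE of each of the 43 genes between disease and WT mice on placebo, in the Dnm2 cohort (left) and the Bin1 cohort (right), filled where adjusted p was under 0.05. At left 38 genes lie below 0 and 23 are filled; at right 32 lie below 0 and only Aqp1 is filled.

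A further list of 38 endothelial genes outside the set gave 22 lower, 0 higher and a median of -0.71 in the same comparison, led by Adgrf5 (263 ± 22.9 against 98.7 ± 30.3 CPM, SD, n = 4; -1.42 ± 0.19 (SE), adjusted p = 0.000155), an adhesion receptor of capillary endothelium. By vessel type, 6 of 12 arterial genes were lower and none higher, with Sema3g at -1.32 ± 0.22 (SE, adjusted p = 0.000837), whereas 1 of 9 venous genes was lower, and 1 of 7 lymphatic genes, which was Flt4 itself. Of 11 genes of tip cells and sprouting 3 were lower and 1 higher. The lower ones were Angpt2 and Dll4, which belong to the set itself, and Nrp1, the VEGF co-receptor, at -1.18 ± 0.24 (SE, adjusted p = 0.00316). The higher one was the protease receptor gene Plaur at 1.41 ± 0.40 (SE, adjusted p = 0.0193). Partners of the VEGF, Notch and TIE pathways split 3 to 3 among 17 tested, those of ALK1 and BMP signalling had 1 higher and 3 lower of 12, and those of cGMP signalling had 2 lower of 5. Hypoxia targets, a readout that includes targets of HIF-2α, split 3 to 3 of 18, with a median of -0.07. These lists share some genes with the set and with each other.

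Markers of other cells were read in this comparison too. Over all 15439 genes tested 1868 were called higher and 1514 lower, so 1 call in a list of 6 to 9 genes is near these shares. Of 8 leukocyte and macrophage genes 4 were higher and none lower, their summed level ranging from 58.7 to 99.3 CPM in WT and from 87.6 to 348 CPM in mutant mice, and of 13 pericyte and smooth muscle genes 3 were higher and 5 lower (4065 to 4573 against 4836 to 8879 CPM summed), with Rgs5 of pericytes at -1.13 ± 0.18 (SE, adjusted p = 0.000667). The sum of the pericyte and smooth muscle list was higher although 10 of its 13 values lay below 0, with a median of -0.62, so the sum is not read as a level of pericyte RNA. The list also holds the desmin gene Des, and the part of single genes in the sum was not tested. Of 9 myofiber genes 1 was higher and 3 lower (114924 to 139976 against 90911 to 130011 CPM). Of 5 satellite cell genes 2 were lower, although their summed level was not (26.6 to 37.6 against 28.8 to 52.6 CPM). Of 8 fibroblast genes 1 was higher (957 to 1329 against 1662 to 2381 CPM). Lists that were lower, like the endothelial genes, included the erythroid list (1 of 6 lower, all 6 values below 0, median -0.74, 367 to 1571 against 350 to 865 CPM) and the osteoblast and osteocyte list (1 of 9 tested lower, median -1.02, 30.2 to 58.1 against 12.3 to 19.4 CPM without overlap). Most of that bone sum was Alpl, which is also on the arterial list, at 38.6 ± 12.7 CPM in WT and 13 ± 3.47 CPM in mutant mice (SD). Of these 7 lists Bglap2 and Mepe of the bone list were at 0 in every mutant mouse and no other marker was at 0 in every mouse of either group. Their part in the result was not tested. The fold changes of all genes also varied with transcript length, with a median of 0.19 for transcripts under 2 kb and -0.02 for longer ones. Of the 8 endothelial genes under 2 kb (Icam2, Ramp2, Esam, Rgcc, Vegfb, Egfl7, Cldn5 and Sox18) 1 fell, with a median of -0.26, and of the other 35 genes 22 fell, with a median of -0.85. With an offset for transcript length 25 of the 43 genes fell.

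In the Bin1 cohort the same question was asked of Bin1 mck-/- mice on placebo. Of the 43 genes 1 fell, Aqp1, none rose, and 0.627% of the 14841 genes tested were called lower. The median log2 fold change was -0.23 against 0.01 over all genes tested, with 32 of 43 values below 0, and 9 genes had an unadjusted p under 0.05, all of them lower. Aqp1 was at 588, 717, 693 and 684 CPM in WT and 404, 493, 502 and 398 CPM in Bin1 mck-/- mice, without overlap, and fell by 0.58 ± 0.14 (SE) on the log2 scale (adjusted p = 0.04). The count went to 0 without WT mouse 6, 7 or 8 or Bin1 mck-/- mouse 1, 2 or 4, to 2 without Bin1 mck-/- tamoxifen mouse 2, 3 or 4, and to 7 in a fit of these groups alone. Dll4 came next, at 21.2 ± 0.835 CPM in WT and 13.3 ± 3.02 CPM in Bin1 mck-/- mice (-0.68 ± 0.18 (SE), adjusted p = 0.0572), then Esam (-0.43 ± 0.14 (SE), adjusted p = 0.099) and Erg (-0.52 ± 0.18 (SE), adjusted p = 0.125), none of which passed.

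Growth factor and receptor genes did not pass in this cohort. Vegfa was at 404, 356, 370 and 404 CPM in WT and 434, 356, 452 and 331 CPM in Bin1 mck-/- mice, and Vegfb at 171, 164, 168 and 182 CPM in WT against 204, 189, 197 and 133 CPM in Bin1 mck-/- mice, the groups overlapping in both genes. Flt1 was at 112, 109, 110 and 96.5 CPM in WT against 72.8, 96.1, 87.1 and 86.7 CPM in Bin1 mck-/- mice, which did not overlap (-0.32 ± 0.14 (SE), adjusted p = 0.207). Kdr was at 81, 75.7, 89.4 and 82 CPM and, with a wider spread, at 71.1, 53.2, 122 and 64.9 CPM. Flt4 was at 13.5, 14.2, 13.3 and 11.4 CPM in WT against 9.77, 9.4, 14.9 and 14.8 CPM in Bin1 mck-/- mice (-0.10 ± 0.27 (SE), adjusted p = 0.878), Vegfc at 2.4, 1.95, 3.58 and 2.38 CPM in WT against 3.67, 2.41, 3.67 and 2.42 CPM in Bin1 mck-/- mice, and Pgf at 1.03, 1.08, 0.704 and 0.753 CPM in WT against 0.769, 1.32, 0.949 and 1.38 CPM in Bin1 mck-/- mice, each overlapping. Epas1 was at 313, 309, 307 and 264 CPM in WT against 310, 305, 295 and 284 CPM in Bin1 mck-/- mice, overlapping (0.00 ± 0.12 (SE), adjusted p = 0.996).

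The TIE and cyclase genes were likewise below the threshold in Bin1 mck-/- mice. Tek was at 28.4, 30, 36.1 and 29.7 CPM in WT and 25.7, 21.4, 33.6 and 18 CPM in Bin1 mck-/- mice, and Tie1 at 90.6, 76.8, 95.8 and 80.5 CPM in WT against 65.3, 75.6, 79 and 61.8 CPM in Bin1 mck-/- mice. Angpt2 was at 3.83, 5.32, 6.43 and 4.52 CPM in WT against 3.26, 2.67, 4.05 and 3.89 CPM in Bin1 mck-/- mice and Angpt1 at 15.4, 22.8, 18.3 and 16.7 CPM in WT against 12.1, 14.5, 19.3 and 12.7 CPM in Bin1 mck-/- mice. The log2 fold changes of these 4 genes were -0.33, -0.29, -0.53 and -0.32, with overlapping groups. Gucy1a1 was at 13.2, 13.1, 11.6 and 14.5 CPM in WT against 10.1, 10.5, 11.5 and 9.24 CPM in Bin1 mck-/- mice, Gucy1b1 at 11, 7.73, 9.02 and 8.95 CPM in WT against 10.5, 7.5, 10.3 and 9.4 CPM in Bin1 mck-/- mice, and Nos3 at 27.7, 22.3, 32.4 and 28.7 CPM in WT against 25, 20.3, 30.1 and 23.3 CPM in Bin1 mck-/- mice. Of these 3 genes Gucy1a1 alone was lower in all Bin1 mck-/- mice than in all WT mice (-0.34 ± 0.20 (SE), adjusted p = 0.362). None of the 38 further endothelial genes passed, with a median of -0.12, while 5 of 8 leukocyte and macrophage genes were higher (summed level 46.9 to 68.7 CPM in WT and 137 to 259 CPM in Bin1 mck-/- mice). Of 5 adipocyte genes tested 3 were higher, Lep being at 0 in all WT mice. Over all 14841 genes tested 295 were called higher. The part of these other cells in the values was not tested.

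The disease effects of the cohorts were compared in 1 fit of all 28 mice. The difference passed for 2 of the 43 genes, in both lower in the Dnm2 cohort, with 0.168% of 16036 genes called in that direction. Epas1 differed by -0.80 ± 0.17 (SE), adjusted p = 0.0313, from -0.79 in the Dnm2 and 0.00 in the Bin1 cohort, and Flt1 by -1.17 ± 0.26 (SE), adjusted p = 0.0478, from -1.48 and -0.32. Jam2 (-1.25 ± 0.32 (SE), adjusted p = 0.0917) did not pass. The median difference over the 43 genes was -0.48 against 0.00 over all genes, and 13 genes had an unadjusted p under 0.05. The count went to 0 without Dnm2 S619L/+ placebo mouse 2 or 4, WT placebo mouse 2 or 3 of the Dnm2 cohort, Bin1 mck-/- placebo mouse 1, 2 or 3, or WT mouse 6, 7 or 8 of the Bin1 cohort, to 1 in 13 other fits, and to 8 without Dnm2 S619L/+ placebo mouse 3 (0.606% of genes then called lower). The 6 that joined were Jam2, Kdr, Erg, Cdh5, Pecam1 and Vegfa. The direction of this move follows from the high levels of the mouse left out.

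**Figure D3:**
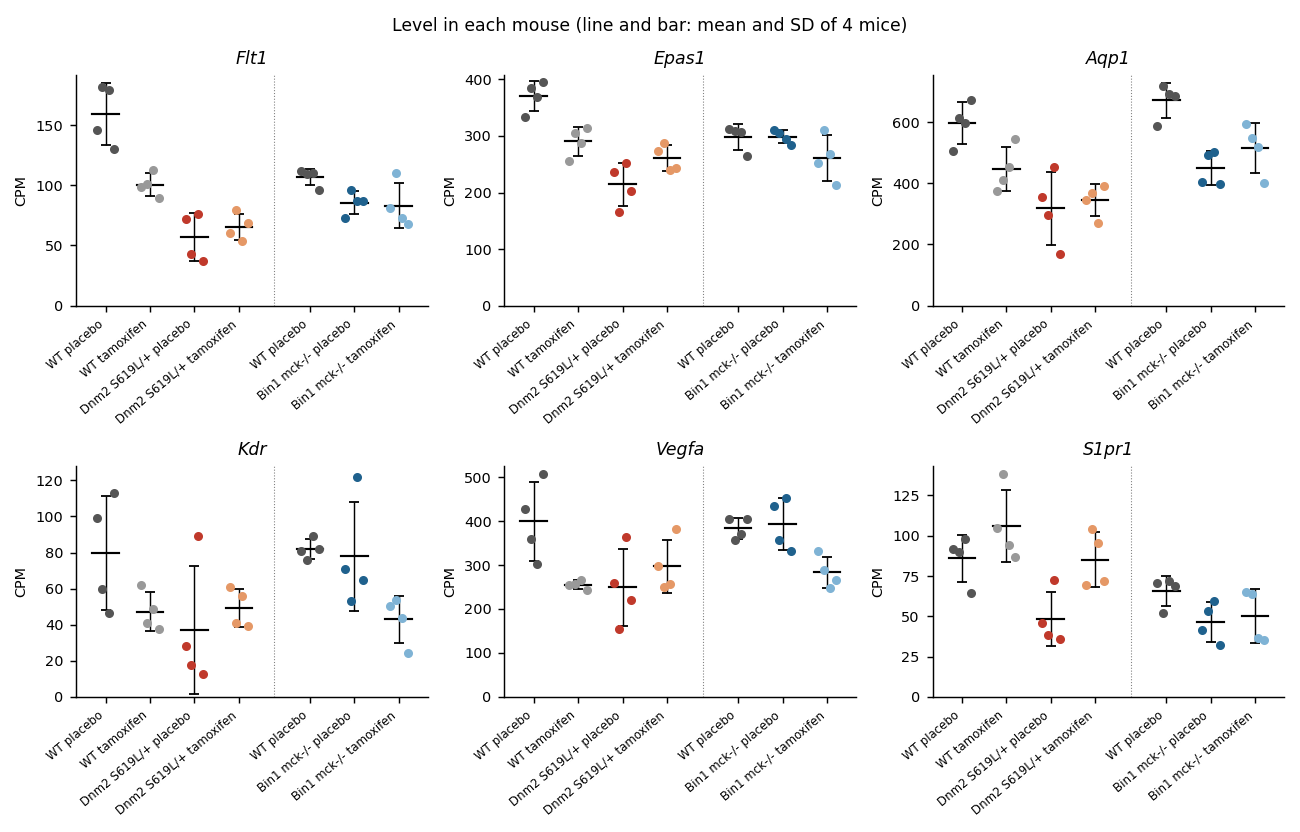
CPM of Flt1, Epas1, Aqp1, Kdr, Vegfa and S1pr1 in each mouse (points) of the 7 groups, with the mean and SD of 4 mice (line and bar), the Dnm2 cohort left of the dotted line and the Bin1 cohort right of it. Flt1 and Epas1 are lower in every Dnm2 S619L/+ placebo mouse than in every WT placebo mouse of that cohort, and for Kdr 3 of the 4 are.

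Tamoxifen in WT mice was compared with placebo in the Dnm2 cohort. Of the 43 genes 4 fell, Vegfb, Flt1, Vegfa and Epas1, none rose, and 11.9% of the genes tested were called lower. Lower calls were thus no more frequent among the 43 than among all genes. The median log2 fold change was -0.31 against -0.04 over all genes tested. Vegfb was at 70.6, 87.3, 90.5 and 92.8 CPM in WT tamoxifen mice, all below the WT placebo mice, and fell by 0.65 ± 0.12 (SE) on the log2 scale (adjusted p = 0.00119). Vegfa, at 254, 258, 267 and 243 CPM, fell by 0.64 ± 0.22 (SE) on the log2 scale (adjusted p = 0.0375). Flt1, at 98.2, 101, 113 and 89.5 CPM, fell by 0.66 ± 0.21 (SE) on the log2 scale (adjusted p = 0.0261), and Epas1, at 256, 305, 287 and 314 CPM, by 0.35 ± 0.12 (SE) on the log2 scale (adjusted p = 0.0415). None of the 4 genes overlapped between placebo and tamoxifen.

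Vegfb kept its call in all 16 fits that left out 1 mouse, Flt1 in 11, and Vegfa and Epas1 in 9 each. The count was 1 without WT tamoxifen mouse 1 or 2, 2 without WT tamoxifen mouse 4 or WT placebo mouse 4, and 7 without Dnm2 S619L/+ placebo mouse 3, which enters here through the shared estimate of spread. The count was 9 with an offset for transcript length, where the median over all genes moved to -0.12. Of 18 hypoxia targets 5 were lower and 1 higher, with Bnip3 at -0.74 ± 0.13 (SE, adjusted p = 0.00112), and of the 38 further endothelial genes 5 were lower and 1 higher, with a median of -0.41. The lists by vessel type and pathway had higher calls and no lower ones in 2 of 12 arterial genes (median 0.26), 2 of 9 venous genes (0.72), 1 of 7 lymphatic genes (0.20), 1 of 11 tip cell genes (0.18), 3 of 17 VEGF, Notch and TIE partners (0.11) and 4 of 12 ALK1 and BMP partners (0.19), while 1 of 5 cGMP partners was higher and 1 lower. Over all 15439 genes tested 2441 were called higher, and the counts of most of these lists were near that share. The 2 arterial genes were Alpl, also a bone gene, and Fbln5. The higher gene of the 38 was Slco2a1, a prostaglandin transporter (2.05 ± 0.43 (SE), adjusted p = 0.00298). Of 9 osteoblast and osteocyte genes tested 8 were higher, the summed level of the 11 listed going from 30.2 to 58.1 CPM in WT placebo to 630 to 1639 CPM in WT tamoxifen mice, none being at 0 in every mouse of either group. Of 8 fibroblast genes 5 were higher (957 to 1329 against 9174 to 17845 CPM summed) and of 8 leukocyte genes 6 were higher (58.7 to 99.3 against 164 to 315 CPM). The part of these other RNAs in the lower endothelial values was not tested.

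Tamoxifen in Dnm2 S619L/+ mice was compared with placebo in the same genotype. Of the 43 genes 1 rose, S1pr1, and none fell, with 5.22% of the genes tested called higher. The median log2 fold change was 0.36 against -0.03 over all genes tested, 40 of the 43 values lay above 0, and 9 genes had an unadjusted p under 0.05. S1pr1 was at 46, 38.3, 72.4 and 35.8 CPM on placebo and 69.5, 104, 95.5 and 71.6 CPM on tamoxifen, overlapping only through placebo mouse 3, and rose by 0.82 ± 0.22 (SE) on the log2 scale (adjusted p = 0.034). With 1 mouse left out it no longer passed in 5 of 16 fits, those without placebo mouse 1, 2 or 4 or tamoxifen mouse 2 or 3, and also with Xist as a covariate, without the filter on low counts and in a fit of these groups alone. All 4 tamoxifen mice and 2 of 4 placebo mice had Xist, and the part of sex in this comparison was not tested beyond that covariate. Vwf, at 29.8, 45.4, 35.3 and 31.7 CPM on tamoxifen, was above all placebo mice but did not pass (0.43 ± 0.14 (SE), adjusted p = 0.0731), nor did Notch1 (0.54 ± 0.19 (SE), adjusted p = 0.0887).

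The count depended on placebo mouse 3, 1 of the 2 placebo mice without Xist. The other, mouse 2, had a median of -0.42 over the mean of its group mates on the log2 scale and was the lowest in 14 genes. In 35 of the 43 genes mouse 3 was the highest placebo mouse, so leaving it out lowers their placebo mean. The fit without it is therefore no separate support for a rise on tamoxifen. In that fit 12 of the 43 genes rose, whereas 4.58% of all genes did: Apln, S1pr1, Cdh5, Erg, Kdr, Pecam1, Flt4, Jam2, Notch1, Ptprb, Angpt2 and Pdgfb. Apln then had the smallest p (1.51 ± 0.27 (SE), adjusted p = 0.00579), its tamoxifen mice being at 5.58, 5.5, 5.38 and 8.03 CPM and the other placebo mice at 2.06 to 2.22 CPM. For Kdr, at 60.7, 40.9, 55.8 and 39.3 CPM on tamoxifen, the value was 1.32 ± 0.33 (SE), adjusted p = 0.0271 without mouse 3 and 0.41 ± 0.47 (SE), adjusted p = 0.626 with it, and for Cdh5 0.92 ± 0.20 (SE), adjusted p = 0.0153 and 0.45 ± 0.29 (SE), adjusted p = 0.351. Leaving out tamoxifen mouse 4, whose osteoblast and osteocyte genes summed to 57.6 CPM, the lowest of the group, gave 3 genes.

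The growth factor and receptor genes in tamoxifen-treated Dnm2 S619L/+ mice were as follows, none passing against placebo. Vegfa was at 298, 250, 258 and 382, Vegfb at 111, 99.3, 97.8 and 104, Vegfc at 3.13, 2.67, 3.69 and 1.33 and Pgf at 2.73, 4.07, 2.85 and 2.28 CPM. Flt1 was at 60.7, 79.1, 53.9 and 68.6 and Flt4 at 11.3, 11.3, 8.67 and 7.62 CPM. Each of these ranges overlapped that of the placebo mice, with log2 fold changes from -0.13 (Vegfb) to 0.58 (Pgf). In the TIE system Tek was at 27.6, 26.5, 23.7 and 21.1, Tie1 at 53.7, 55.2, 42.9 and 45.8, Angpt1 at 17, 27.5, 19.8 and 20.6 and Angpt2 at 4.48, 6.66, 4.89 and 3.52 CPM. Gucy1a1 was at 13.4, 12.1, 14 and 9.26, Gucy1b1 at 10.9, 10.8, 8.59 and 7.04 and Nos3 at 17, 14.2, 15.8 and 16.7 CPM, with log2 fold changes of 0.31, 0.22 and 0.10.

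Outside the set, 5 of 12 arterial genes were higher on tamoxifen in Dnm2 S619L/+ mice, with a median of 0.85. Alpl had the smallest p (3.20 ± 0.43 (SE), adjusted p = 0.00159), but it is also a bone gene. Jag1, an arterial Notch ligand, rose from 6.26 ± 1.52 to 13.2 ± 3.79 CPM (SD, n = 4; 1.07 ± 0.22 (SE), adjusted p = 0.0091), and the tip cell gene Esm1 from 0.393 ± 0.230 to 2.07 ± 0.746 CPM (2.35 ± 0.45 (SE), adjusted p = 0.00713). Of the 38 further endothelial genes 2 were higher, Slco2a1 and Plvap, the diaphragm protein of endothelial pores (1.13 ± 0.31 (SE), adjusted p = 0.0393). Tmem100, a gene of ALK1 signalling, was also higher (1.49 ± 0.24 (SE), adjusted p = 0.00339). As in WT mice, 8 of 9 osteoblast genes tested were higher, their sum going from 12.3 to 19.4 CPM on placebo, with Bglap2 and Mepe at 0 in all 4 mice, to 57.6 to 963 CPM on tamoxifen, and 3 of 8 fibroblast genes were higher (1662 to 2381 against 2075 to 13780 CPM summed). Their part in the endothelial values was not tested.

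The tamoxifen effect in Dnm2 S619L/+ mice was set against that in WT mice with an interaction term. None of the 43 genes passed in edgeR, where 0.259% of all genes did, although 14 had an unadjusted p under 0.05 and DESeq2 called 2. The median difference was 0.58 against -0.01 over all genes, with 39 of the 43 values above 0, the placebo Dnm2 S619L/+ and WT groups entering with opposite signs. Vwf had the smallest p (0.82 ± 0.20 (SE), adjusted p = 0.11), then Epas1 (0.64 ± 0.17 (SE), adjusted p = 0.143) and Flt4 (0.86 ± 0.27 (SE), adjusted p = 0.192). Leaving out Dnm2 S619L/+ placebo mouse 3, with its high levels, moves the difference up in most of the 43 genes. Without that mouse the difference passed for 8 genes, Erg, Cdh5, Kdr, Ptprb, Flt4, Jam2, Epas1 and Vegfa, all above 0, with 0.612% of genes called higher. Of these Kdr had the largest value (2.08 ± 0.44 (SE), adjusted p = 0.0286).

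Tamoxifen-treated Dnm2 S619L/+ mice were next compared with WT placebo mice, which also serve as controls in the disease comparison. Of the 43 genes 11 were lower and none higher, with 13.1% of the genes tested called lower, and the median was -0.34 against 0.01 over all genes. In order of p they were Flt1, Erg, Gucy1a1, Epas1, Aqp1, Gucy1b1, Jam2, Vegfb, Ptprb, Sox7 and Tek. Flt1 was lowest (-1.28 ± 0.21 (SE), adjusted p = 0.000653), at 0.413 of the WT level, and beside it stood Erg, at 15.2, 15.8, 12.9 and 12.8 CPM (-0.86 ± 0.19 (SE), adjusted p = 0.00425), and Epas1, at 273, 287, 240 and 244 CPM (-0.50 ± 0.12 (SE), adjusted p = 0.00669). All tamoxifen-treated mice were below all WT placebo mice in these 3 genes.

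Gucy1a1 (-0.87 ± 0.21 (SE), adjusted p = 0.00645), Gucy1b1 (-0.70 ± 0.21 (SE), adjusted p = 0.0184) and Vegfb (-0.38 ± 0.12 (SE), adjusted p = 0.0253), with the levels given above, were also below WT without overlap. Aqp1 was at 345, 369, 271 and 391 CPM (-0.80 ± 0.22 (SE), adjusted p = 0.0154) and Jam2 at 55.3, 53.2, 43.7 and 37.7 CPM (-0.84 ± 0.26 (SE), adjusted p = 0.023), again below all WT placebo mice. Flt1, Erg, Gucy1a1 and Epas1 were called in each of the 16 fits that left out 1 mouse. The count was 4 without Dnm2 S619L/+ tamoxifen mouse 3, 5 without WT placebo mouse 4, 17 without Dnm2 S619L/+ placebo mouse 3, with Apln then higher, and 5 with Xist as a covariate, all 4 treated and 2 of 4 WT mice having Xist. Of the 38 further endothelial genes 15 were lower and 2 higher. The arterial (2 of 12), venous (1 of 9) and lymphatic (2 of 7) lists had higher calls and no lower ones. Over all 15439 genes tested 2435 were called higher. The 2 arterial genes were Alpl, also a bone gene, and Fbln5. Among other cells, higher calls were seen in 8 of 9 osteoblast and osteocyte genes tested (30.2 to 58.1 CPM summed in WT placebo against 57.6 to 963 CPM), 5 of 8 fibroblast genes (957 to 1329 against 2075 to 13780 CPM) and 5 of 8 leukocyte genes (58.7 to 99.3 against 106 to 237 CPM). Of 13 pericyte and smooth muscle genes 4 were lower and 1 higher, with a median of -0.28 (4065 to 4573 against 4056 to 5966 CPM), of 9 myofiber genes 3 were lower and 1 higher (114924 to 139976 against 79146 to 127357 CPM), and their part was not tested.

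**Figure D4:**
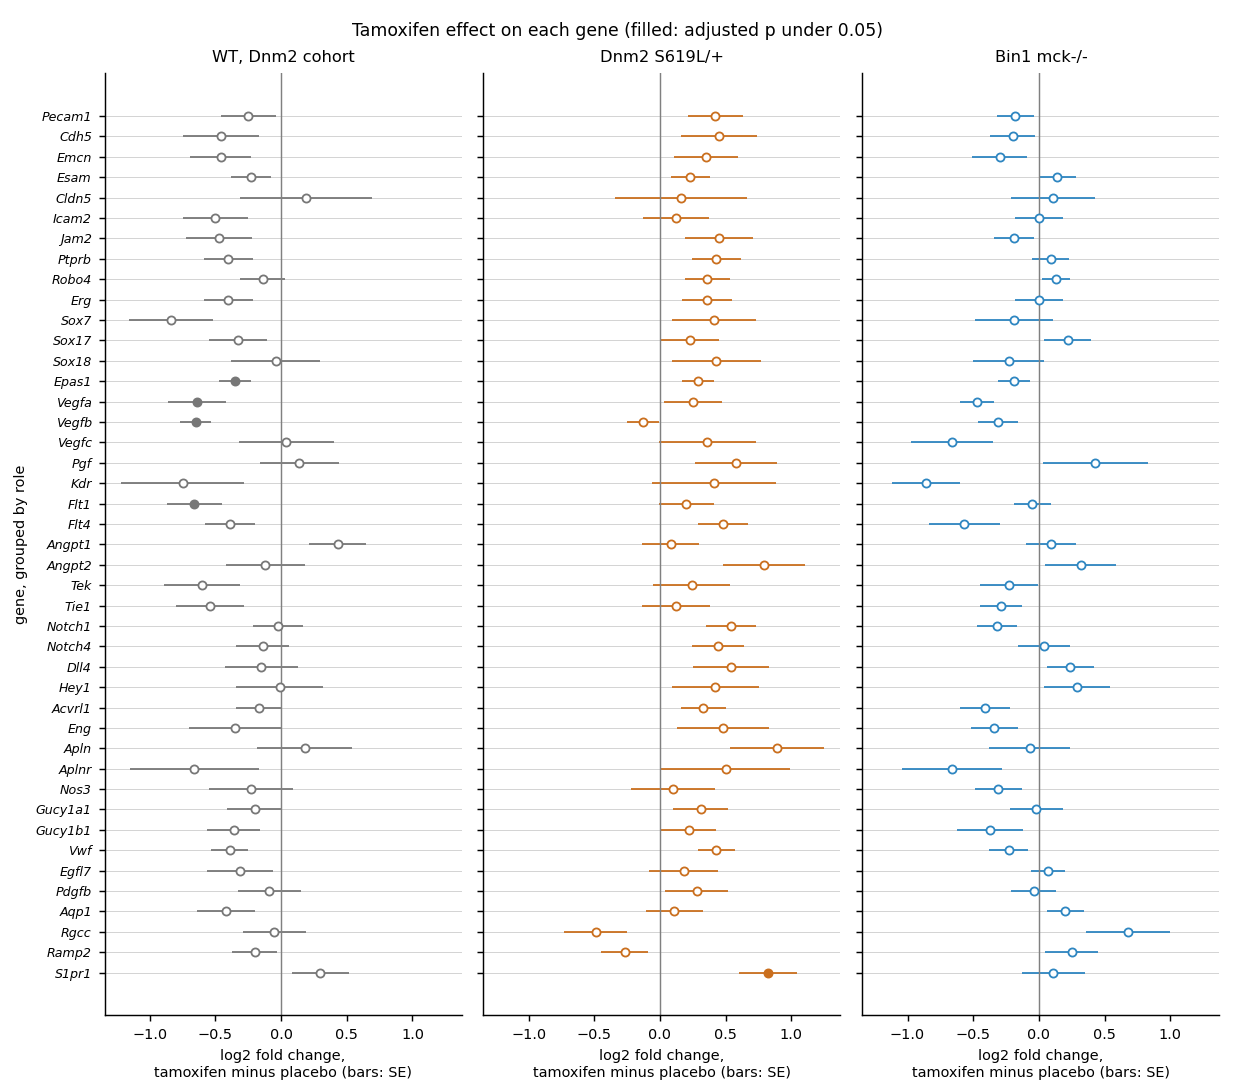
Log2 fold change ± SE of the 43 genes between tamoxifen and placebo in WT mice of the Dnm2 cohort (left), Dnm2 S619L/+ mice (middle) and Bin1 mck-/- mice (right), filled where adjusted p was under 0.05. Filled points are Epas1, Vegfa, Vegfb and Flt1 at left, all below 0, and S1pr1 in the middle, above 0, with none at right.

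Tamoxifen in Bin1 mck-/- mice gave no call among the 43 genes in edgeR, where 3.13% of all genes were called, while 4 genes had an unadjusted p under 0.05 and DESeq2 called 2. The median log2 fold change was -0.07 against 0.00 over all genes tested. Vegfa was nearest, at 331, 289, 248 and 265 CPM on tamoxifen, no mouse lying above the lowest placebo mouse (-0.47 ± 0.13 (SE), adjusted p = 0.0577), followed by Kdr, at 50.2, 53.6, 43.5 and 24.6 CPM (-0.86 ± 0.26 (SE), adjusted p = 0.0963). Kdr overlapped narrowly, treated mouse 2 lying above the lowest placebo mouse at 53.2 CPM. The remaining growth factor and receptor genes overlapped too: Vegfb at 180, 148, 108 and 149, Vegfc at 2.14, 2.91, 1.63 and 1.02, Pgf at 1.22, 2.18, 0.543 and 2.01, Flt1 at 81.2, 110, 73.1 and 68 and Flt4 at 12.4, 9.95, 6.4 and 4.31 CPM. Tek was at 21.9, 26.8, 22.7 and 12.4, Tie1 at 69.3, 70.8, 49.4 and 40.3, Angpt1 at 12.4, 13.5, 20.7 and 15.8 and Angpt2 at 3.01, 4.31, 6.95 and 3.03 CPM. Nos3 was at 24.1, 23.6, 18.8 and 13.3, Gucy1a1 at 11.7, 10.5, 13.1 and 5.45 and Gucy1b1 at 9.46, 9.37, 6.87 and 3.4 CPM. In most of these genes mouse 4 was the lowest of the group.

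Leaving out 1 mouse gave 1 called gene without Bin1 mck-/- tamoxifen mouse 1 and 2 without mouse 2, all lower on tamoxifen. Outside the set, 2 of 38 further endothelial genes were lower, Cd34 (99.5 ± 7.81 against 61.3 ± 18.8 CPM, SD, n = 4; -0.70 ± 0.18 (SE), adjusted p = 0.0454), a surface marker also carried by fibroblasts, and Lyve1 (-2.11 ± 0.52 (SE), adjusted p = 0.0493), a marker of lymphatic vessels and some macrophages. Of 18 hypoxia targets 3 were lower, with P4ha2 at -0.57 ± 0.14 (SE, adjusted p = 0.034), and the Notch target Hes1 was lower (-0.81 ± 0.13 (SE), adjusted p = 0.00588). Among other cells, 3 of 6 nerve and Schwann cell genes were lower, summing to 46.8 to 101 CPM on placebo and 23.2 to 36 CPM on tamoxifen. No fibroblast, osteoblast or osteocyte gene was called, but their sums spread widely between the treated mice. The fibroblast list summed to 1795 to 4294 CPM on placebo and 275 to 5858 CPM on tamoxifen. The osteoblast and osteocyte list summed to 25.8 to 38.8 CPM on placebo and 18.6 to 469 CPM on tamoxifen. The part of these other RNAs was not tested.

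Against WT placebo mice, tamoxifen-treated Bin1 mck-/- mice gave no call in edgeR, with 0.849% of genes called, although 18 of the 43 genes had an unadjusted p under 0.05 and DESeq2 called 6. The median was -0.37 against 0.03 over all genes, with 38 of 43 values below 0. Notch1 had the smallest p, at 34.9 ± 1.95 CPM in WT and 23 ± 5.82 CPM in treated mice (-0.60 ± 0.15 (SE), adjusted p = 0.0755), then Cdh5 (-0.65 ± 0.17 (SE), adjusted p = 0.0962) and Tie1 (-0.58 ± 0.16 (SE), adjusted p = 0.11). Kdr, at 0.524 of the WT level, lay in all 4 treated mice below all WT mice (-0.93 ± 0.26 (SE), adjusted p = 0.131). Rgcc stood on the other side, at 40.5, 22.9, 26.9 and 32.2 CPM in WT and 89.9, 66.1, 27.6 and 73.9 CPM in treated mice (1.07 ± 0.32 (SE), adjusted p = 0.161), with treated mouse 3 within the WT range. The count was 2 without Bin1 mck-/- tamoxifen mouse 2, 1 without Bin1 mck-/- placebo mouse 3 and 1, higher, without tamoxifen mouse 3.

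The tamoxifen effects in the disease models were compared in the fit of all mice, where none of the 43 genes passed in edgeR, 1.71% of genes did, 12 of the 43 had an unadjusted p under 0.05, and DESeq2 called 5. The median difference, Dnm2 S619L/+ minus Bin1 mck-/-, was 0.44 against 0.01 over all genes. Notch1 came nearest (0.89 ± 0.25 (SE), adjusted p = 0.0548), and Rgcc lay lowest (-1.14 ± 0.41 (SE), adjusted p = 0.0993). The count was 6 without Dnm2 S619L/+ placebo mouse 3 or tamoxifen mouse 4, 5 without Bin1 mck-/- tamoxifen mouse 2, and 1 without Dnm2 S619L/+ placebo mouse 1 or Bin1 mck-/- tamoxifen mouse 1.

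**Figure D5:**
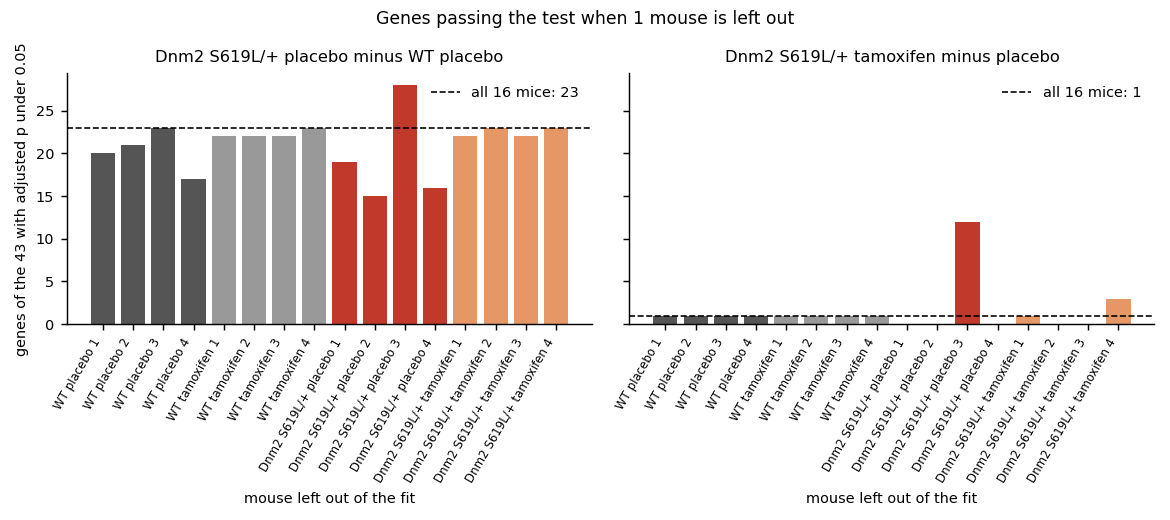
Number of the 43 genes with adjusted p under 0.05 when the mouse named on the axis is left out of the fit of the Dnm2 cohort, for Dnm2 S619L/+ placebo against WT placebo (left) and Dnm2 S619L/+ tamoxifen against placebo (right), the dashed line giving the count with all 16 mice. The counts run from 15 to 28 at left and from 0 to 12 at right, the highest bar of each being the fit without Dnm2 S619L/+ placebo mouse 3.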

How the data were processed

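Tibialis anterior RNA was sequenced from 28 mice, and the values used were the read counts per gene that the authors deposited, 1 table per cohort, not normalized. The submitters' processing notes name bcl2fastq 2.20.0.422, cutadapt 1.10, Bowtie 1.2.2, STAR 2.5.3, HTSeq 0.6.1p1 and the build mm39. Of the genes listed, 55416 in the Dnm2 and 55359 in the Bin1 cohort, 52083 had a name in the reference tables. For the Bin1 cohort 4 lines named no gene, took 22% to 30.8% of the counts and were left out. Libraries held 15586333 to 109710886 reads on genes in the Dnm2 and 24671835 to 35136327 in the Bin1 cohort. No 2 libraries of a group agreed within sampling noise (lowest chi-square per gene 15.62).

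Each cohort was fitted separately in edgeR 4.0.16 (limma 3.58.1, R 4.3.3) with all its groups, and the comparisons across cohorts in 1 fit of 28 mice, by the robust quasi-likelihood test after filterByExpr and TMM scaling, with a prior count of 2 for fold changes. Tests were two-sided and calls were made at a Benjamini-Hochberg adjusted p under 0.05 over all genes tested. p-values measure the spread between mice. Gene symbols came from the reference tables, and levels per kilobase used exon lengths of GENCODE annotation. Promoters came from RefSeq on GRCm38.p6, which is not the build of the counts, and no coordinates were carried between builds. The script was tested on simulated data.

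The members and lists were chosen with earlier results of these data known. By the rule, values per mouse were given for called genes in order of adjusted p, up to 8 per comparison, and, where fewer than 3 were called, for the VEGF, angiopoietin, TIE and nitric oxide genes. The levels of the groups these genes share with the Dnm2 disease comparison are printed there, with its test. Values per mouse of Cldn5, Apln, Vwf on tamoxifen and Rgcc were added after their values were seen, while other lists were represented by at most the 2 genes of smallest p. Any of the 43 could be named without values per mouse. Alternatives were DESeq2 1.42.0, RLE size factors, no filter, a filter of more than 10 reads in 90% of mice, Xist as a covariate, no mitochondrial reads, thinned libraries, a fit of the compared groups alone, a block for the replicate number, leaving out each mouse, and an offset for transcript length, which was chosen after seeing the data.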

Additional observations from a re-analysis of the deposited data

Results flagged for a closer look

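Within the groups of 4 mice, 15 of 301 sets of values (4.98%) held 1 mouse far from the other 3 by Dixon's test, and chance gives about 1 in 20. In Dnm2 S619L/+ placebo mouse 3 these were Cldn5 at 22 CPM (the others at 3.98 to 6.11), Apln at 6.84 (2.06 to 2.22), Aplnr at 32.1 (9.26 to 11) and Pdgfb at 45 (19.7 to 23.3). In Bin1 mck-/- placebo mouse 3 they were Cdh5 at 161 CPM (123 to 127), Emcn at 27.9 (16.9 to 18.1) and Jam2 at 55.3 (45.7 to 46.9), and in mouse 4 of that group Sox7 at 19.5 (6.66 to 8.7). Single values were Jam2 at 119 CPM in WT placebo mouse 4 of the Dnm2 cohort (69.3 to 76.9), Pgf at 2.81 in Dnm2 S619L/+ placebo mouse 4 (1.62 to 1.78), Apln at 8.03 in Dnm2 S619L/+ tamoxifen mouse 4 (5.38 to 5.58) and Aplnr at 14.7 in WT tamoxifen mouse 3 (20.2 to 21). In the WT mice of the Bin1 cohort they were Erg at 19.6 CPM in mouse 7 (16.4 to 16.6), Epas1 at 264 in mouse 8 (307 to 313) and S1pr1 at 52 in mouse 6 (68.7 to 71.6).

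The disease effect differed between the cohorts, by the test of the difference itself, for Epas1 by -0.80 and for Flt1 by -1.17 on the log2 scale, the Dnm2 cohort being the lower. Model and library protocol cannot be told apart here.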

How the results depend on the processing

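Counts of called genes among the 43 are given here. No fold change of a called gene reversed under any alternative run: of the alternatives for 42 called results 932 kept the call and 174 lost it, and of those for results not called 142 gained one. For Dnm2 S619L/+ against WT on placebo the count of 23 ranged from 17 (only the groups compared) to 27 (DESeq2), and from 15 to 28 when 1 mouse was left out. For tamoxifen in WT (4) it was 2 with no filter and 9 with the length offset, chosen after seeing the data, and 1 to 7 leaving out 1 mouse. For tamoxifen in Dnm2 S619L/+ (1) it was 2 with DESeq2, 0 with no filter, with Xist as a covariate or with only the groups compared, and 0 to 12 leaving out 1 mouse. For the interaction (0) it was 2 with DESeq2 and 0 to 8, and for Dnm2 S619L/+ on tamoxifen against WT (11) 5 with Xist and 4 to 17. For Bin1 mck-/- against WT (1) it was 3 with DESeq2 or the length offset, 2 with no filter, 7 with only the groups compared, and 0 to 2 leaving out 1 mouse. For tamoxifen in Bin1 mck-/- (0) it was 2 with DESeq2, 1 with no filter and 0 to 2, and against WT (0) 6 with DESeq2, 2 with no filter and 0 to 2. Between the cohorts, the disease difference (2) gave 1 with no filter, without mitochondrial reads or in thinned libraries and 0 to 8, and the tamoxifen difference (0) gave 5 with DESeq2, 1 with the filter of the study or in thinned libraries and 0 to 6. The cause of these moves was not tested. With the replicate number as a block the counts were 20 (disease, Dnm2 cohort), 3 (tamoxifen in WT), 2 (tamoxifen in Dnm2 S619L/+), 9 (Dnm2 S619L/+ on tamoxifen against WT), 0 (interaction) and 0 (tamoxifen in Bin1 mck-/-). The numbers do not pair the mice: the deviations of same-numbered mice correlated at -0.325 to 0.335 over 24 pairs of mice in the Dnm2 cohort, 9 of them over 0.1, and at -0.175 to 0.149 over 4 pairs of mice in the Bin1 cohort, 1 of them over 0.1. Mice of different number and group correlated at -0.423 to 0.359 in the Dnm2 cohort and at -0.17 to 0.321 in the Bin1 cohort. No paired analysis was possible against the WT mice of the Bin1 cohort because they carry other numbers. Xist as a covariate was not run in the Bin1 cohort, where every mouse had it.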
